A study of Mus musculus with 3 samples.

Results

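Ligament-gated cells of the mouse jaw were followed across 3 single-cell RNA libraries, Ctrl, 1d and 7d. They were chosen by UMIs, the unique molecular identifiers that count captured RNA molecules. A barcode was taken with at least 20 UMIs over the collagen genes Col1a1, Col1a2 and Col3a1, no UMI of the leukocyte gene Ptprc, under 20 UMIs over the osteocalcin genes Bglap and Bglap2, and at most 1 UMI of Hmga2. It also needed at least 3 UMIs over the ligament genes Tnmd, Scx, Fmod, Aspn and Tnn, and more of them than of the fibroblast genes Pi16, Dpt, Clec3b and Mfap5. This gave 297 of 20504 kept cells, which were 167 in Ctrl, 80 in 1d and 50 in 7d.

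All groups were male wild-type C57BL/6 mice of 10 weeks. The 1d and 7d mice received 10 Gy to the head and neck and were killed at day 1 or day 7, and Ctrl mice were not irradiated. Each library pooled 8 mice, 24 in all, so a group was 1 library with no replicate. No test between groups was possible, and every interval below is an exact 95% interval that covers counting error only. The jaw tissue was digested with collagenase II, frozen and thawed, so enzyme treatment and storage were shared by all groups.

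The periodontal ligament is the collagen-rich tissue that anchors a tooth root in its socket and carries chewing load to bone. Its fibroblasts make and turn over collagen fibres, and they share with tendon cells the membrane protein tenomodulin (Tnmd) and the transcription factor scleraxis (Scx). Fibromodulin (Fmod) and asporin (Aspn) are small proteoglycans that bind collagen, tenascin N (Tnn) is a matrix glycoprotein, and periostin (Postn) is a matrix protein of loaded connective tissue that the rule did not use.

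The gated cells held 1480256 UMIs in Ctrl, 986294 in 1d and 532860 in 7d, with medians per cell of 7563, 12239.5 and 8877 UMIs. Kept cells numbered 8880, 5127 and 6497. Between pairs of libraries, 9 to 15 kept barcodes were shared, and in no case were both copies gated. The gated cells made up 1.88% of kept cells in Ctrl (1.61 to 2.19), 1.56% in 1d (1.24 to 1.94) and 0.770% in 7d (0.572 to 1.01). The share in 1d was 0.830 times that in Ctrl (0.627 to 1.09), an interval that includes 1, and the share in 7d was 0.409 times that in Ctrl (0.292 to 0.564). Other cell classes set the denominator. Among collagen-rich cells without Ptprc, the gated cells were 44.5% in Ctrl (39.4 to 49.7), 48.8% in 1d (40.9 to 56.7) and 61.7% in 7d (50.3 to 72.3). By this denominator 7d was above Ctrl and not below it, while the 1d interval overlapped both others. After thinning to 2000 UMIs a cell, the shares of kept cells were 1.51%, 0.643% and 0.723%, against 2.88%, 1.77% and 0.903% unthinned in the same cells.

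The leading genes of the gate were Fmod (chr1:134037254-134048277, plus strand), Aspn (chr13:49544443-49567565, plus strand) and Tnn (chr1:160085029-160153580, minus strand), at GENCODE M21 positions on GRCm38. Tnmd lies at chrX:133850980-133865577, Scx at chr15:76457452-76459458 and Postn at chr3:54361109-54391037, all on the plus strand. Fmod held the most ligament UMIs in 76 Ctrl, 46 1d and 24 7d cells, Aspn in 46, 17 and 9, and Tnn in 44, 13 and 17. Tnmd led in 1, 4 and 0 cells, and Scx led in none. Only 1 of the 5 ligament genes had a UMI in 73 Ctrl, 40 1d and 14 7d cells. Many cells thus passed by a single gene, and whether they are 1 kind of cell was not tested. Tnmd had a UMI in 13 of 167 Ctrl, 9 of 80 1d and 6 of 50 7d cells, and Scx in 9, 12 and 4. The tendon side of the name therefore rests on few cells, and the cells are called ligament-gated here. B cells, which should lack these genes, had Tnmd in 0 of 1187 Ctrl, 0 of 941 1d and 0 of 581 7d cells and Scx in 3, 2 and 1. Fmod was in 15, 3 and 0 of them, Aspn in 9, 0 and 2 and Tnn in 16, 5 and 1, at lower median depths of 2125, 3070 and 2816 UMIs. Thinned to 2000 UMIs, Scx was in 0.602% of gated cells and 0.142% of B cells in Ctrl, 6.25% and 0% in 1d, and 8% and 0.247% in 7d.

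Postn was found in 68.9% of gated cells in Ctrl, 63.8% in 1d and 84% in 7d, against 2.86%, 0.106% and 0% of B cells. Postn in fibroblasts and other collagen-rich cells is not given here, so this contrast does not set gated cells apart from them. Its median was 6.34 UMIs per 10000 of a cell in Ctrl, 2.64 in 1d and 32.6 in 7d. Summed over cells, Postn stood at 2421 UMIs per 1000000 in Ctrl, 3292 in 1d and 4632 in 7d. The middle library was thus lowest by the median and between the others by the sum, and 1 cell of 1d held 24.3% of that library's Postn UMIs.

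**Figure D1:**
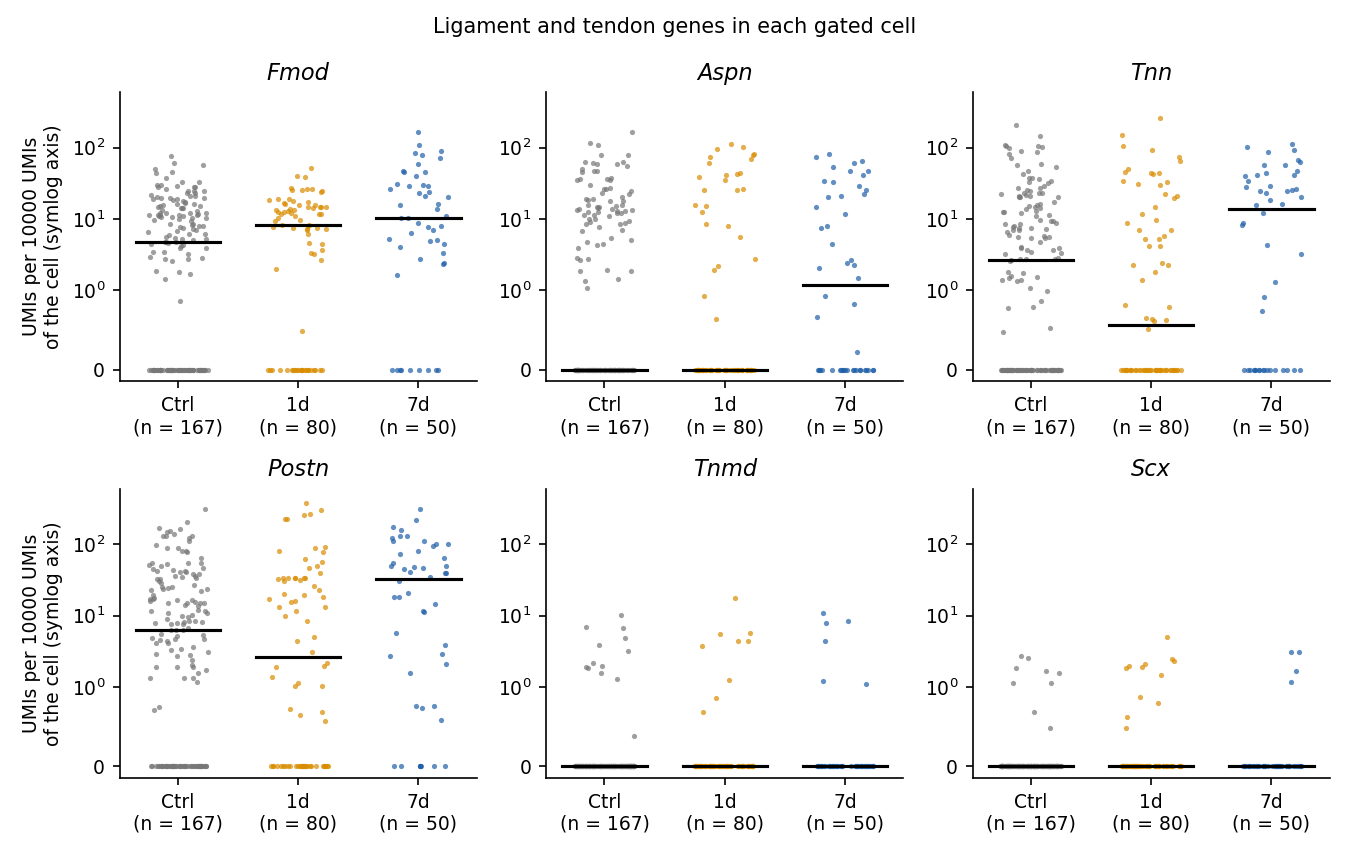
Each point is 1 gated cell in Ctrl (n = 167), 1d (n = 80) or 7d (n = 50), on a symlog axis of UMIs per 10000 UMIs of the cell, with the median as a black line. Fmod, Aspn, Tnn and Postn spread over a wide range in every library, while the medians of Tnmd and Scx are 0 in all 3.

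The sum over the ligament genes had a median of 15 UMIs in Ctrl, 22 in 1d and 29 in 7d. At the threshold of 3 UMIs stood 7, 6 and 1 cells, and 7, 4 and 1 otherwise fitting cells had 2 UMIs and were left out. The gate genes were themselves used by the rule, so their levels are a description. Fmod was at 959 UMIs per 1000000 in Ctrl, 1013 in 1d and 2894 in 7d. Aspn was at 814, 897 and 1317, and Tnn at 1133, 1311 and 2205. All 3 were highest in 7d, where 1 cell held 23.0% of the Fmod UMIs and 1 cell held 26.9% of the Aspn UMIs. In 1d, 1 cell held 21.9% of the Aspn UMIs.

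Cells with at least 2 UMIs over Tnmd and Scx numbered 8 in Ctrl, 9 in 1d and 6 in 7d, and they are set beside the other gated cells as a description. The split uses genes of the rule, so the other cells had to pass it by Fmod, Aspn or Tnn. Sox9, a transcription factor of cartilage and tendon progenitors, was at 48.3 UMIs per 1000000 in these cells and 561 in the others in Ctrl. In 1d Sox9 was at 56.8 and 592, and in 7d at 365 and 568. Cxcl12, a chemokine of bone marrow stroma, was at 32.2 in these cells and 410 in the others in Ctrl, 56.8 and 240 in 1d, and 26.0 and 246 in 7d. Both genes were lower in the summed UMIs of the Tnmd and Scx cells of every library, and the Sox9 UMIs of those cells in 7d came from 2 of the 6. Omd, the proteoglycan osteomodulin, was higher in every library, by 2.82-fold (2.09 to 3.74), 1.99-fold (1.41 to 2.75) and 2.04-fold (1.58 to 2.61). The tendon matrix gene Thbs4 was 4.97-fold higher in Ctrl (4.18 to 5.87), 1.38-fold in 1d (1.11 to 1.69) and at a ratio of 0.457 in 7d (0.274 to 0.720).

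RNA of other lineages was present at levels that differed between classes. Erythroid markers gave 8326, 13705 and 10682 UMIs per 1000000 in Ctrl, 1d and 7d, above the ligament and tendon markers at 4221, 5264 and 8918, and in 7d 95.3% of them lay in 1 cell. Chondrocyte markers gave 630, 640 and 14942, and osteoblast markers 603, 678 and 6713. Endothelial markers gave 36.5, 55.8 and 39.4 UMIs per 1000000 in Ctrl, 1d and 7d. Of the endothelial markers, Cdh5 and Emcn were at 0 in all 3, whereas Pecam1 and Kdr had UMIs in each. At least 2 UMIs of endothelial markers were in 13 Ctrl, 11 1d and 7 7d cells. Dental pulp and odontoblast markers gave 1023, 568 and 546. Among them the odontoblast gene Dspp was at 0 in all 3, while Dmp1 had 73 UMIs in Ctrl, 1 in 1d and 0 in 7d. At least 2 UMIs of the pulp and odontoblast markers were in 53.9% of Ctrl, 57.5% of 1d and 22% of 7d cells. Skeletal muscle markers gave 6.08, 0 and 7.51, with Acta1, Ckm and Myh4 at 0 in all 3. Neutrophil markers gave 746, 626 and 175 UMIs per 1000000. Epithelial markers gave 390 in 1d, of which 99.2% lay in 1 cell, and 4.05 in Ctrl. Haemoglobin passed 5% of UMIs in 9, 3 and 1 cells. Only 23 cells in Ctrl, 1 in 1d and 1 in 7d held fewer than 3 UMIs over all such markers, and between those cells several directions given below turned, among them Hspa1a, Klf2, Eda2r and Ccng1 in 1d and Tsc22d3, Il1rl1, Fosl1 and the proteoglycan median in 7d. The part of other-lineage RNA in the results below was not tested.

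Jaw fibroblasts, taken by the same collagen and Ptprc limits but with fibroblast genes ahead, numbered 65 in Ctrl, 12 in 1d and 15 in 7d. They held 382088 UMIs in Ctrl, 78551 in 1d and 86396 in 7d, so low fibroblast values below rest on few UMIs. Of genes with at least 20 UMIs, 16.5% were at least 2-fold higher and 8.26% at least 2-fold lower in gated cells of Ctrl. The corresponding percentages were 27.5% and 12.4% in 1d, and 16.9% and 12.5% in 7d. These classes were split by some of their genes, so the differences are given without a test. Sox9 was at 539 UMIs per 1000000 in gated cells and 118 in fibroblasts in Ctrl, 534 and 76.4 in 1d, and 539 and 11.6 in 7d. Kctd12, an auxiliary subunit of GABA-B receptors, was 8.60-fold higher in Ctrl, 16-fold in 1d and 14.8-fold in 7d. Gpx3, a secreted glutathione peroxidase, was 5.64-fold, 8.66-fold and 6.06-fold higher. Slc20a2, a phosphate transporter, was at 243 and 20.9 in Ctrl and at 503 and 46.3 in 7d. In the other direction, S100a6, a calcium-binding protein, was at ratios of 0.134, 0.311 and 0.352. Serping1, the inhibitor of complement C1, was at 0.329, 0.190 and 0.315, and the complement protease gene C1s1 at 0.518, 0.303 and 0.305.

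**Figure D2:**
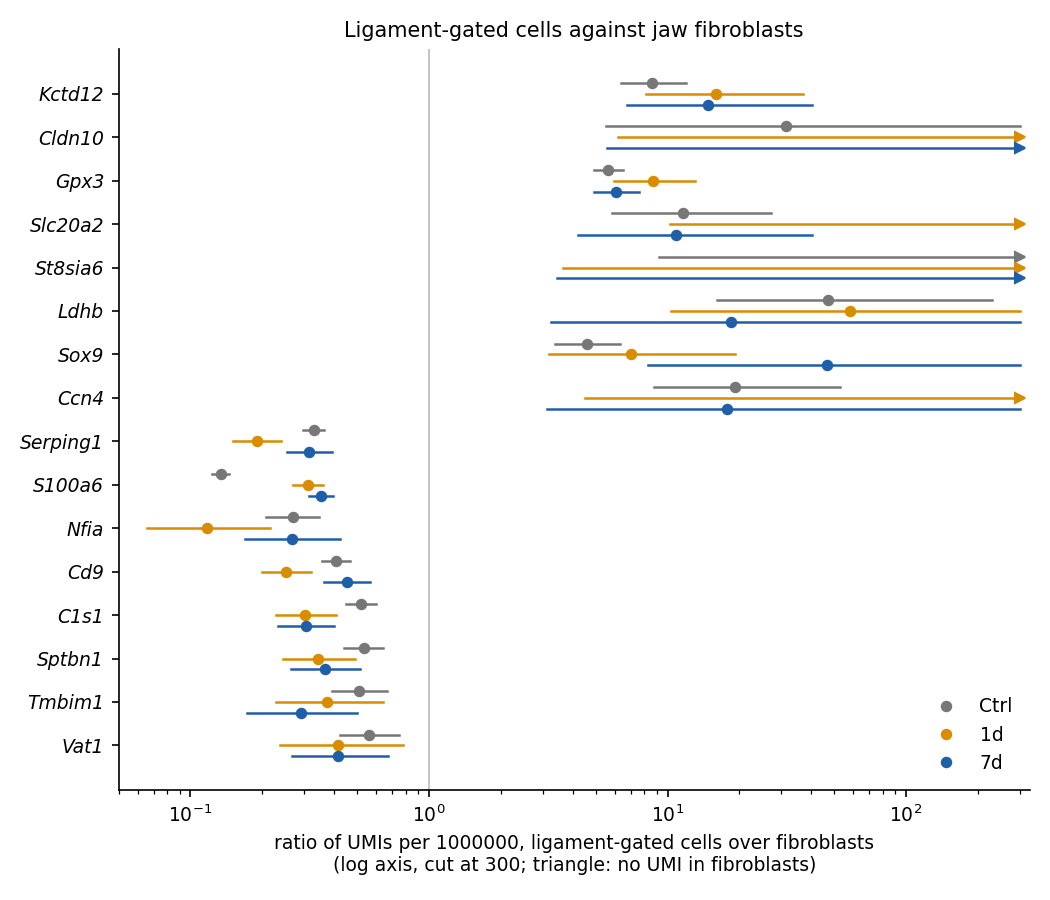
Ratios of UMIs per 1000000, gated cells over jaw fibroblasts, for 16 genes in each library, with exact 95% intervals on a log axis cut at 300. The upper 8 genes lie right of 1 and the lower 8 left of 1 in all 3 libraries, as their selection required.

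At day 1, 4.69% of 9089 genes with at least 20 UMIs were at least 2-fold higher and 4.2% at least 2-fold lower than in Ctrl, and the median gene had a log2 ratio of 0.03. Genes higher in 1d included Id1, an inhibitor of differentiation induced by BMP signals, at 461 UMIs per 1000000 in 1d and 115 in Ctrl, a ratio of 4.02 (3.36 to 4.82). Rhob, a small GTPase, was at 631 in 1d and 213 in Ctrl. Klf2, a transcription factor induced by flow and stress, was at 651 in 1d and 232 in Ctrl. Cldn10, a claudin, was at 293 in 1d and 81.7 in Ctrl, and the Notch ligand gene Dll4 at 52.7 and 11.5. Bmf, which encodes a pro-death BCL2-family protein, was at 25.3 in 1d and 2.7 in Ctrl. Camp, a neutrophil granule gene, was also among them, at 77.1 in 1d and 20.3 in Ctrl.

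Genes lower in 1d included several p53 targets. Eda2r, a death-domain receptor, had no UMI in 1d and 67 in Ctrl, which is at least 14.9-fold lower at a floor of 3 counts. Ccng1 was at 20.3 UMIs per 1000000 in 1d and 121 in Ctrl, a ratio of 0.168 (0.100 to 0.267). Phlda3, an inhibitor of AKT, was at 47.7 in 1d and 232 in Ctrl, and Mdm2, the ligase that degrades p53, at 84.2 and 279. Of the 33 p53 targets with at least 20 UMIs, 2 were at least 2-fold higher and 12 at least 2-fold lower, with a median log2 of -0.68. Gas6, a ligand of TAM receptors, was at 186 in 1d and 1019 in Ctrl. Ephx1, an epoxide hydrolase, was at 12.2 in 1d and 94.6 in Ctrl. The leptin receptor gene Lepr was at 2.03 and 27.0, and complement C3 at 3.04 and 38.5.

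Many inflammatory genes were lower in 1d too. Of 31 NF-kB and inflammatory genes, 2 were at least 2-fold higher and 9 at least 2-fold lower, with a median log2 of -0.51. Saa3 went the other way, at 24 UMIs in 1d and 2 in Ctrl. Of 16 chemokine genes, 1 was at least 2-fold higher and 8 at least 2-fold lower, with a median log2 of -1.04. That median was -0.69 with 5% free RNA subtracted. In each of these lists, 8 of the genes past 2-fold had over 20% of their UMIs in 1 cell. Ccl2, a monocyte chemokine, was at 263 UMIs per 1000000 in 1d and 806 in Ctrl. Of 20 osteoclast regulators, 0 were higher and 7 lower by 2-fold, with a median of -0.70. Of those 7, 4 had over 20% of their UMIs in 1 cell. The chemokine and osteoclast lists share genes, among them Ccl2 and Ccl7. Tnfsf11, which encodes the osteoclast factor RANKL, was at 21.3 in 1d and 62.8 in Ctrl, and its decoy receptor gene Tnfrsf11b at 10.1 and 40.5. Among 23 collagens, none was 2-fold higher and 2 were 2-fold lower, with a median of -0.30.

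At day 7, 11.3% of 8674 genes were at least 2-fold higher and 12.8% at least 2-fold lower than in Ctrl, 980 and 1111 genes, and the median gene had a log2 ratio of 0.08. With TMM factors the split was 843 and 1200, with median-of-ratios size factors 831 and 1216, and with a denominator free of matrix and gate genes 1269 and 913, since that denominator shifts every log2 ratio up by 0.14. The 7d and 1d comparisons share the Ctrl library.

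**Figure D3:**
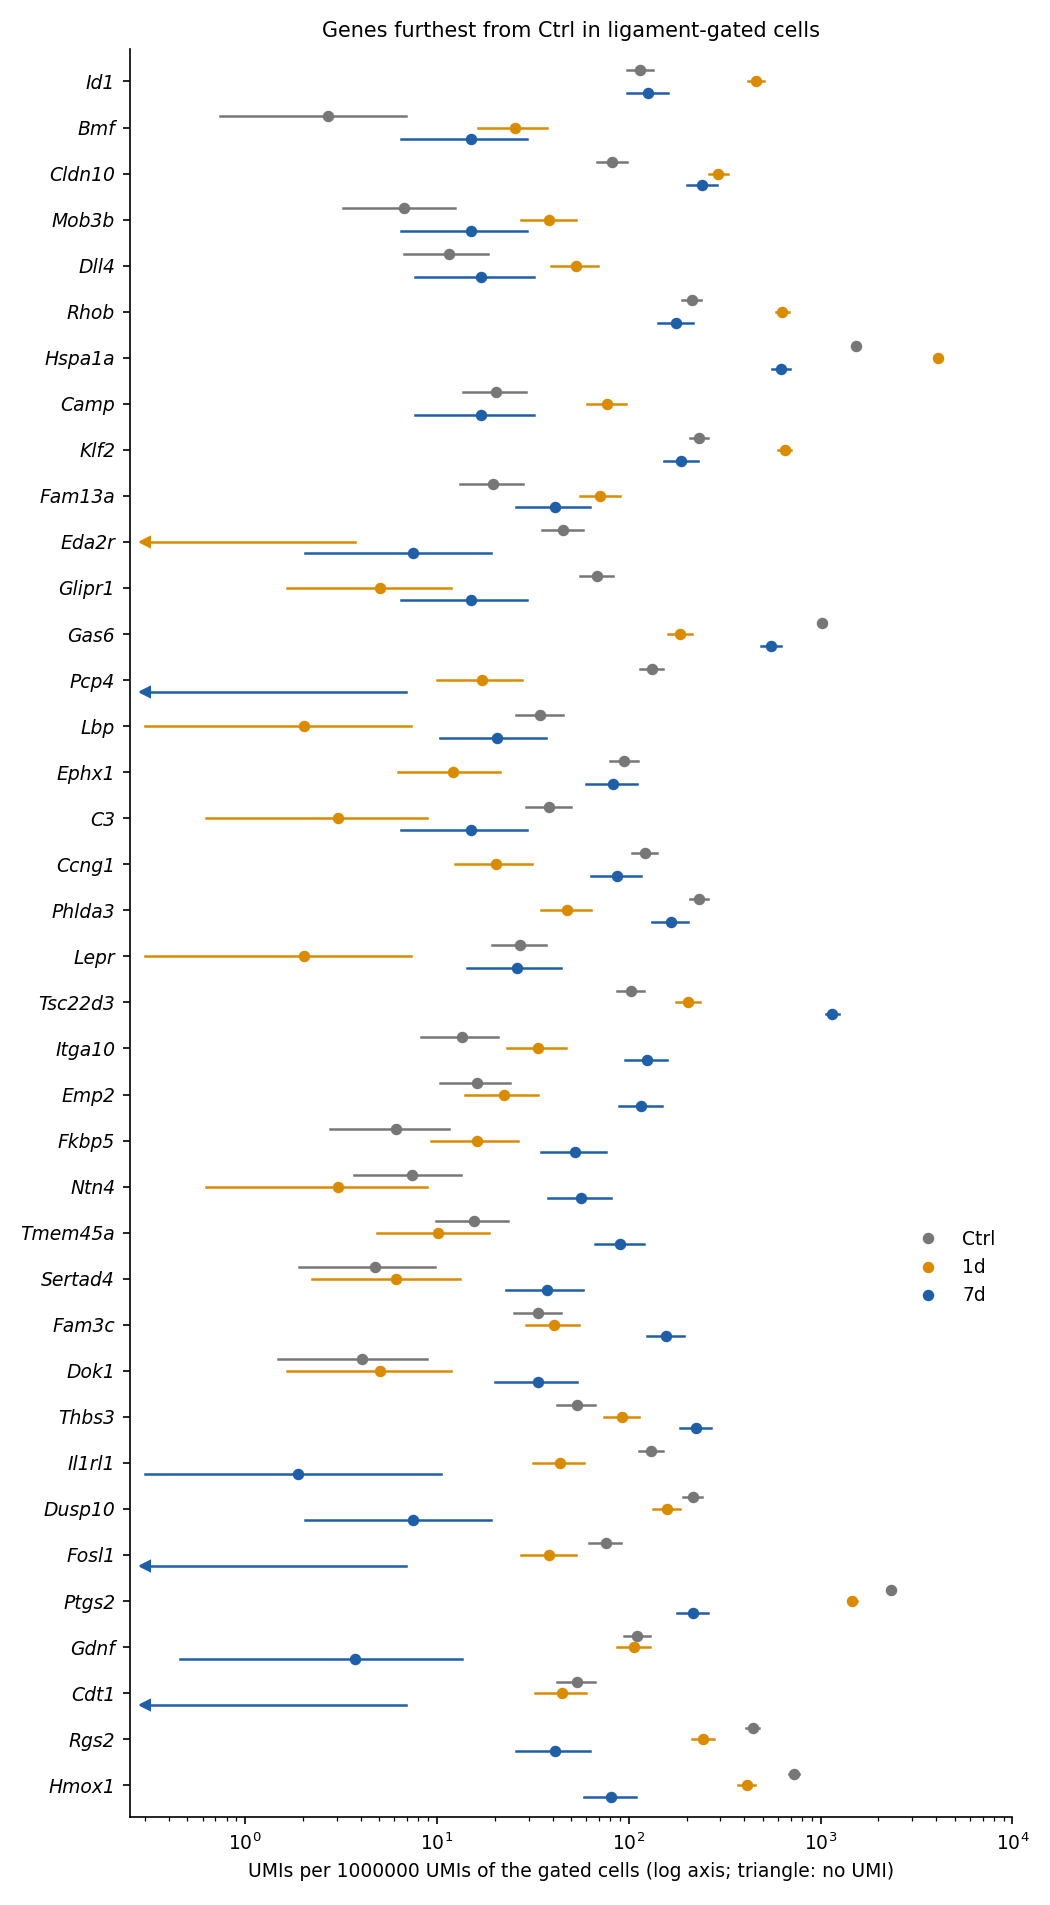
UMIs per 1000000 UMIs of the gated cells in Ctrl, 1d and 7d, with exact 95% intervals on a log axis, for the genes furthest from Ctrl. Tsc22d3 is at 1152 in 7d and 102 in Ctrl, and Id1 at 461 in 1d and 115 in Ctrl.

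Among genes with at most 20% of their UMIs in 1 cell, Tsc22d3 was the furthest above Ctrl in 7d by the nearer end of its interval. It encodes the glucocorticoid-induced leucine zipper GILZ and was at 102 UMIs per 1000000 in Ctrl, 204 in 1d and 1152 in 7d. It had a UMI in 46 of 50 7d cells and 80 of 167 Ctrl cells. Unthinned B cells also had it more often in 7d, in 64.2% against 30.2% in Ctrl. Thinned to equal depth, as for Scx above, B cells had Tsc22d3 in 35.1% in 7d and 24.6% in Ctrl. Gated cells thinned in the same way had it in 74% in 7d and 22.3% in Ctrl. Fkbp5, a co-chaperone of the glucocorticoid receptor, was at 52.5 in 7d and 6.08 in Ctrl. Of 19 measured glucocorticoid-responsive genes, 4 were 2-fold higher and 4 were 2-fold lower, with a median log2 of -0.47. Lcn2, lipocalin 2, was among the lower ones at 2 UMIs in 7d and 39 in Ctrl, a ratio of 0.142 (0.0167 to 0.550). Further genes higher in 7d were Itga10, a collagen-binding integrin subunit, at 124 in 7d and 13.5 in Ctrl, and Emp2, a membrane protein, at 116 and 16.2. Thbs3, a thrombospondin of connective tissue, was at 223 in 7d and 53.4 in Ctrl.

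Many collagen and proteoglycan genes were higher in 7d. The rule itself required 20 UMIs over 3 collagens, and that sum had a median of 90 in Ctrl, 78 in 1d and 345.5 in 7d. Close to this limit, with under 30 UMIs, were 26 of 167 Ctrl, 13 of 80 1d and 2 of 50 7d cells. The part of these cells in the matrix values was not tested. The 83 matrix genes that the rule did not use took 3.44% of gated-cell UMIs in Ctrl, 3.23% in 1d and 8.97% in 7d. Part of the 7d share lay in few cells. There, 6 cells with at least 10 UMIs of cartilage genes other than Sox9 held all 6840 Col2a1 UMIs and 1536 of 1575 Comp UMIs. The share without these cells is not given. Of 25 collagens, 13 were at least 2-fold higher and 1 at least 2-fold lower, with a median log2 of 1.04, or 0.81 without the top cell of each gene, and 8 of those past 2-fold had over 20% of their UMIs in 1 cell. Without the 3 collagens of the rule, 12 of 22 were higher and 1 lower, with a median of 1.08. Col5a1, which takes part in setting fibril diameter, was at 1370 UMIs per 1000000 in 7d and 664 in Ctrl, and Col6a1, a collagen of the pericellular matrix, at 1518 and 703. Of 12 small leucine-rich proteoglycans, 6 were 2-fold higher and 0 lower, with a median of 1.02, or 0.71 without the top cell. Without Fmod and Aspn, which the rule used, 5 of 10 were higher and 0 lower. Bgn, biglycan, was at 3682 in 7d and 1271 in Ctrl, and Dcn, decorin, at 5180 and 2393. Of 28 genes of collagen folding and cross-linking, 6 were higher and 1 lower, with a median of 0.47. Of 16 elastic fibre and microfibril genes, 1 was higher and 0 were lower by 2-fold, with a median of -0.06.

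A few 7d cells carried very high cartilage or bone RNA. Col2a1, the main collagen of cartilage, had 6840 UMIs in 5 of the 7d cells, 5987 of them in 1 cell, against 3 UMIs in Ctrl. Comp, cartilage oligomeric matrix protein, had 1575 UMIs in 12 cells of 7d and 58 UMIs in 10 cells of Ctrl. Ibsp, the bone sialoprotein gene, was at 6277 UMIs per 1000000 in 7d and 345 in Ctrl, with 62.8% of the 7d UMIs in 1 cell. That cell, with 2101 Ibsp UMIs, was the same one that held 5987 Col2a1 UMIs. It was also among the 4 cycling cells of 7d, so these signals were not separate. Cells with at least 10 UMIs of cartilage genes other than Sox9 numbered 1 in Ctrl, 1 in 1d and 6 in 7d. Without them the collagen median was 0.86 and the proteoglycan median 0.81. Sp7, the osteoblast transcription factor osterix, was spread more widely, in 36 of 50 7d cells and 47 of 167 Ctrl cells, at 199 UMIs per 1000000 in 7d and 54.7 in Ctrl.

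**Figure D4:**
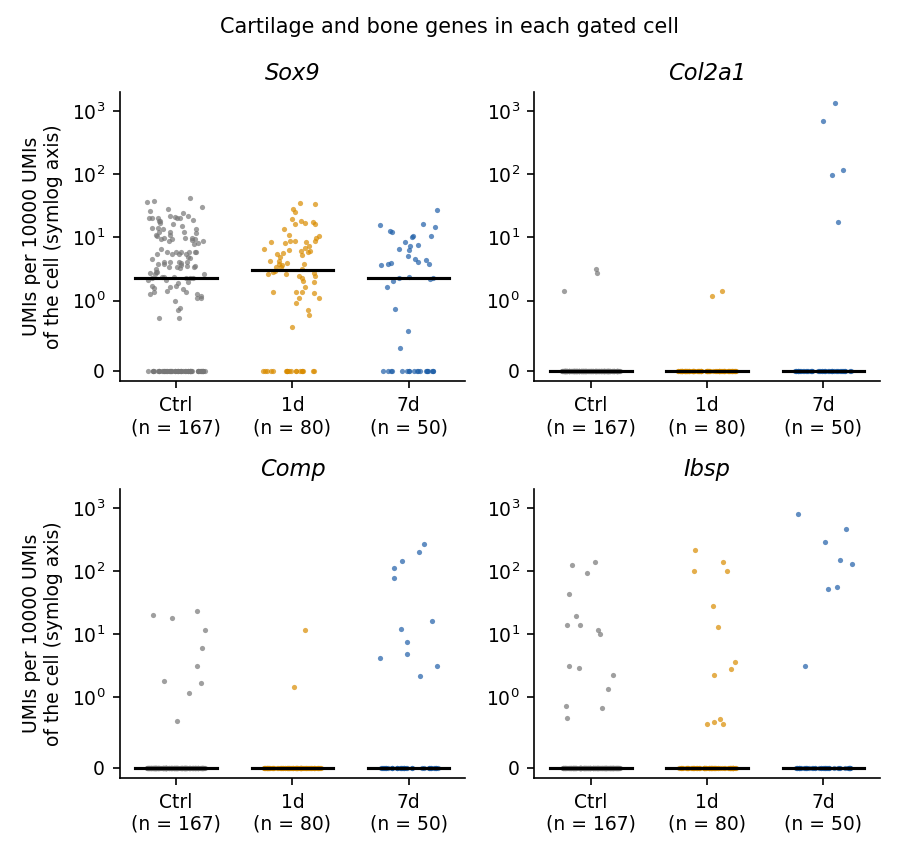
UMIs per 10000 UMIs of the cell for Sox9, Col2a1, Comp and Ibsp in each gated cell of Ctrl, 1d and 7d, on a symlog axis, with medians as black lines. Sox9 is found in most cells of each library, whereas Col2a1 passes 10 per 10000 in 5 cells of 7d and in no cell of the other libraries.

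Heat shock genes were lower in 7d. Of 20, 0 were at least 2-fold higher and 15 at least 2-fold lower, with a median log2 of -1.36, and at day 1 the counts were 1 and 0 with a median of 0.25. Some of their promoters hold the inverted heat shock element GAANNTTC, shown in capitals in the RefSeq promoter windows of GRCm38.p6 below, each 300 bases. Hspb1 lies at chr5:135887669-135887968 on the plus strand and Hspa1a at chr17:34972107-34972406 on the minus strand. Of NRF2 targets, Txnrd1 at chr10:82858956-82859255 and Srxn1 at chr2:152105274-152105573, both on the plus strand, hold the antioxidant element TGACNNNGC in one orientation or the other.
Hspb1: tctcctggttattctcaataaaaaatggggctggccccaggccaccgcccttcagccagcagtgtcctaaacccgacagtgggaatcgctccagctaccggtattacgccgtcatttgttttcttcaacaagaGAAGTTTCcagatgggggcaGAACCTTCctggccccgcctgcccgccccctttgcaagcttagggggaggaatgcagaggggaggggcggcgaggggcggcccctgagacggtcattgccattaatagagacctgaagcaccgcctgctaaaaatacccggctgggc
Hspa1a: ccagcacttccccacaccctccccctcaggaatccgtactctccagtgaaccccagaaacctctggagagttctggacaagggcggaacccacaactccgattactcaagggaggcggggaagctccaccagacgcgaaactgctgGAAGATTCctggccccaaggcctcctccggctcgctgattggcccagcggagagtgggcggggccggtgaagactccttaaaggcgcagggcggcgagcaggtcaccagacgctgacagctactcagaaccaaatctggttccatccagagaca
Txnrd1: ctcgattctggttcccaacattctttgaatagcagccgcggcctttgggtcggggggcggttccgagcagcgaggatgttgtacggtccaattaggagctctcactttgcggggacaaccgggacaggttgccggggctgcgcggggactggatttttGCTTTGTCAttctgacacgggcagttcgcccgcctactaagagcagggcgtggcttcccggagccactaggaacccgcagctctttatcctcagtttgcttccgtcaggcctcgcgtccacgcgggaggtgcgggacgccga
Srxn1: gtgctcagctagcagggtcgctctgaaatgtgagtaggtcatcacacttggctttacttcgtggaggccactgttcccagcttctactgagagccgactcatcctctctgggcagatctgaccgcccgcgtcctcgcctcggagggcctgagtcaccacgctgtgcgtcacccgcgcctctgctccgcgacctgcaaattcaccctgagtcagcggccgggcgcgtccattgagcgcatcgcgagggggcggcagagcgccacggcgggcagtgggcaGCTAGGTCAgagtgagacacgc

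Both strands were searched, and the heat shock motif reads the same on each. It was found for 11 of the 16 heat shock genes with a promoter, against 7.86% of all 32851 promoters. The antioxidant motif was found for 8 of 23 NRF2 targets, against 12.4% of promoters. The counts are of genes and the percentages of promoters, and a gene such as Hsph1 can have several windows. Matches are also not all separate, since Hspd1 and Hspe1 have overlapping windows with a shared site, and the Hspa1a and Hspa1b windows are near-identical. A match describes letters and not a used site. Of the 11 heat shock genes with a match 9 were at least 2-fold lower in 7d, and of the 5 without one 3 were.

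Hspb1, a small heat shock protein, was at 678 UMIs per 1000000 in Ctrl, 1039 in 1d and 90.1 in 7d. Hsp90aa1, the inducible HSP90, was at 3315, 3604 and 769. Hspa1a, an inducible HSP70, was at 1519, 4066 and 623, and its near-identical copy Hspa1b at 2448, 4277 and 901, so the division of reads between them is uncertain. These genes were highest in 1d and lowest in 7d. Of 26 NRF2 targets, 1 was 2-fold higher and 11 were 2-fold lower in 7d, with a median of -0.81. Hmox1, haem oxygenase, was at 726 in Ctrl, 412 in 1d and 80.7 in 7d. Txnrd1, thioredoxin reductase, was at 628, 527 and 93.8, and Srxn1, sulfiredoxin, at 256, 190 and 37.5.

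Inflammatory genes were lower in 7d by a larger amount. Of 30 NF-kB and inflammatory genes, 0 were 2-fold higher and 21 were 2-fold lower, with a median of -2.09. That median was -1.76 with 5% free RNA subtracted, and 9 of the 21 had over 20% of their UMIs in 1 cell. Ptgs2, cyclooxygenase 2, was at 2316 UMIs per 1000000 in Ctrl, 1465 in 1d and 216 in 7d. Il1rl1, the receptor of IL-33, was at 1.88 in 7d and 131 in Ctrl. Gdnf, a neurotrophic factor gene, was at 3.75 in 7d and 110 in Ctrl. Ccl2 was at 26.3 in 7d and 806 in Ctrl. Of 15 chemokines, 0 were higher and 10 lower, with a median of -2.44, or -0.87 with 5% free RNA subtracted. Of the 10 lower ones, 7 had over 20% of their UMIs in 1 cell. Of 20 osteoclast regulators, 1 was higher and 11 were lower, with a median of -1.03. Among those past 2-fold, 6 had over 20% of their UMIs in 1 cell. These lists share genes, so their counts are not independent. Ccl7, Il6 and Lif are in both the NF-kB and osteoclast lists, and Ccl7 is also in the chemokine list. Bmp2, a bone-inducing ligand, was at 1428 in Ctrl, 1084 in 1d and 229 in 7d.

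Of 29 immediate early genes, 0 were 2-fold higher and 14 were 2-fold lower in 7d, with a median of -0.91. Fosl1, an AP-1 subunit, had no UMI in 7d and 112 in Ctrl, at least 13.4-fold lower. Fos itself was at 2106 UMIs per 1000000 in 7d and 1131 in Ctrl, a ratio of 1.86 (1.73 to 2.01). Heat shock and immediate early genes respond to tissue digestion, and whether handling differed between libraries was not tested. In fibroblasts, 5.59% of all genes with at least 20 UMIs were 2-fold higher and 11.8% 2-fold lower in 1d, and 11.5% and 19% in 7d. In 7d fibroblasts, 7 of 27 immediate early genes were 2-fold lower and 2 higher, with a median of -0.30. For heat shock genes 10 of 17 were lower and 1 higher in 7d fibroblasts, and for NF-kB genes 25 of 29 were lower. NRF2 targets were lower for 12 of 19 and higher for 1 there, with a median of -1.26. Among chemokines 13 of 14 were lower (median -3.91), and among osteoclast regulators 7 of 12 were lower and 1 higher (median -1.10). The falls in these lists were thus not particular to the gated cells.

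**Figure D5:**
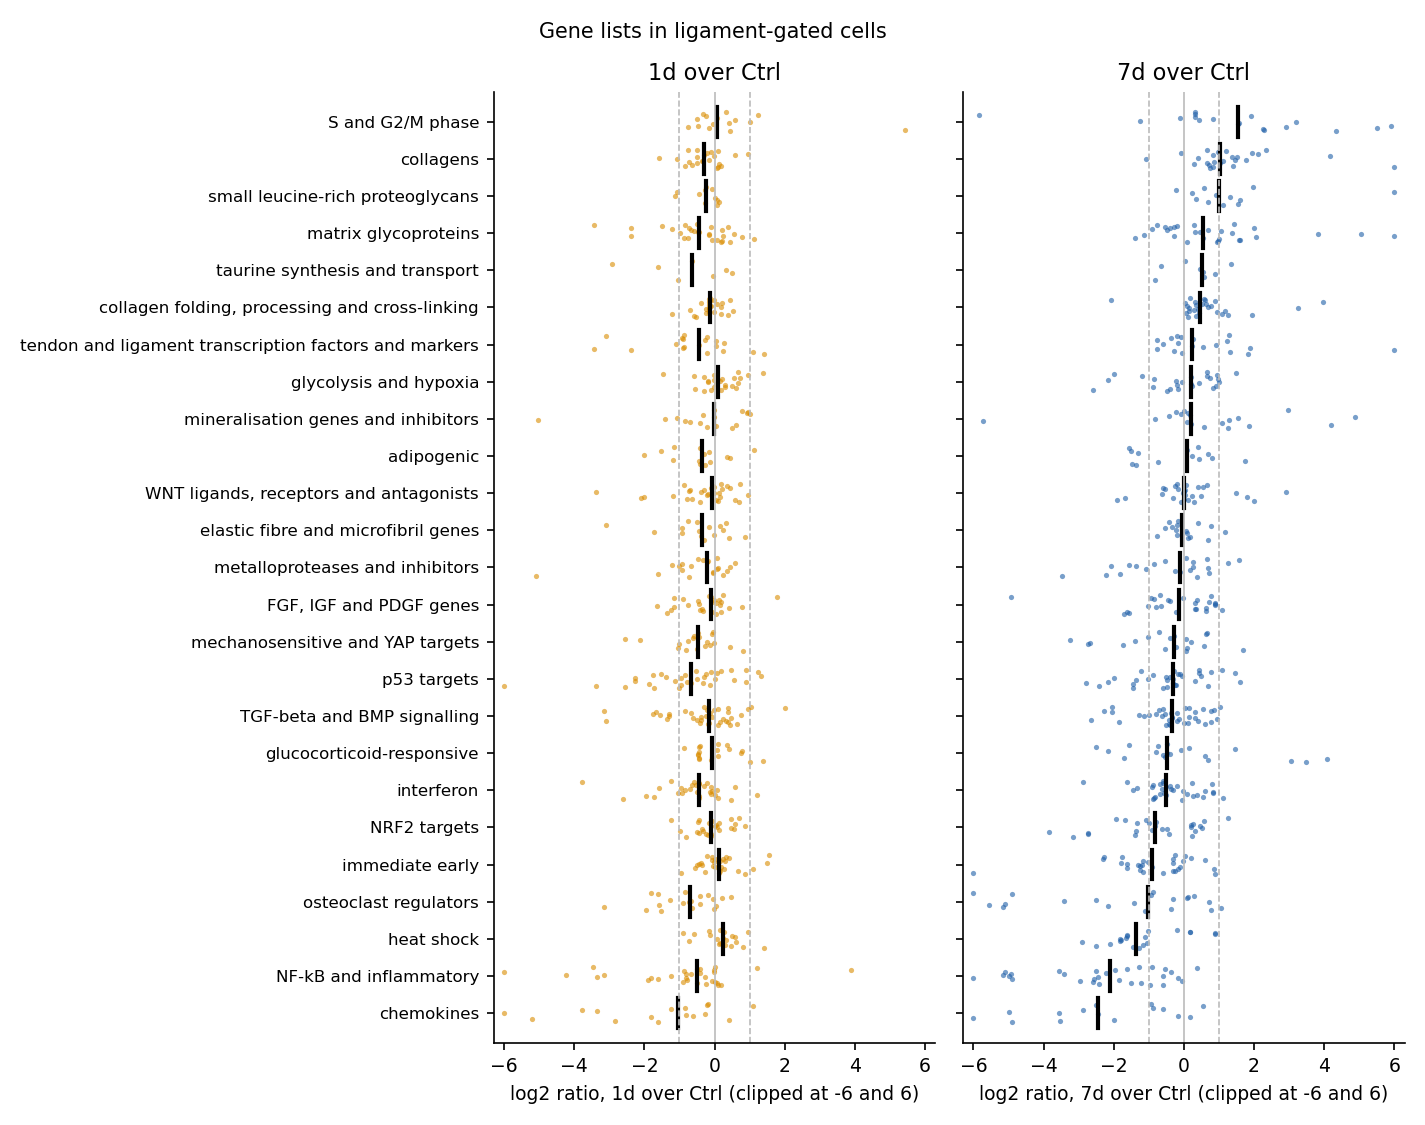
Log2 ratios of the measured genes of 25 lists, 1d over Ctrl on the left and 7d over Ctrl on the right, clipped at -6 and 6, with the list median as a black bar and dashed lines at 2-fold. In 7d the medians run from -2.44 for chemokines to 1.04 for collagens and 1.55 for S and G2/M phase genes.

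Cell cycle genes rested on few cells. The median of 18 S and G2/M genes was 1.55 in 7d, but 0.67 without the top cell of each gene and -0.46 over genes with at least 100 UMIs. Cycling cells numbered 7 in Ctrl, 4 in 1d and 4 in 7d. Of the 4 in 7d, 1 was the cell with 5987 Col2a1 UMIs and most of the Ibsp UMIs. Mki67, a proliferation marker, was found in 3 of the 7d cells and 4 of the Ctrl cells.

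Signalling and mechanical genes are given beside the shares of all genes, which were 4.69% higher and 4.2% lower by 2-fold in 1d, and 11.3% and 12.8% in 7d. Of 38 TGF-beta and BMP genes, 2 were 2-fold higher and 8 were 2-fold lower in 1d (median log2 -0.16), and 1 and 8 in 7d (median -0.34). The BMP antagonist Grem1 was at 120 UMIs per 1000000 in Ctrl, 37.5 in 1d and 28.1 in 7d. Of 30 WNT pathway genes in 1d, 0 were higher and 4 lower, and of 28 in 7d, 4 were higher and 2 lower, where the higher count is near the share of all genes. The WNT antagonist Sfrp2 was at 1072, 250 and 867, so it was lowest in 1d. Of 19 mechanosensitive genes, 0 were higher and 4 lower in 1d, and 1 and 6 in 7d. Piezo2, a stretch-gated channel, was at 56.1 in Ctrl, 27.4 in 1d and 7.51 in 7d.

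Mmp13, a collagenase, was at 1390 UMIs per 1000000 in Ctrl, 455 in 1d and 394 in 7d. Of 21 metalloproteases and inhibitors, 0 were higher and 4 lower in 1d (median log2 -0.21), and 2 and 7 in 7d (median -0.11). The growth factor Igf1 was at 348, 147 and 445, and the mineralisation inhibitor Mgp at 216, 81.1 and 522, both lowest in 1d. Of 31 interferon genes in 1d, 1 was higher and 7 were lower, and of 33 in 7d, 1 and 5, where the lower count is close to the share of all genes. Slc6a6, the taurine transporter, was at 248.6 in Ctrl, 121 in 1d and 141 in 7d, and Csad, an enzyme of taurine synthesis, at 48.0, 67.9 and 88.2.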

How the data were processed

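Single-cell RNA of jaw tissue was counted with Cell Ranger 6.1.1, per the file headers. CASAVA 1.8, Cell Ranger, Seurat and mm10 are named in the submitters' processing notes. The deposited values were raw UMI counts per gene and cell, per the file headers. Barcodes with at least 500 UMIs, 250 genes and at most 15% mitochondrial UMIs were kept. No doublet caller was run: the rule requires Ptprc at 0, and alternatives left out cells with RNA of other lineages. Free RNA was not subtracted in the reported values. The members and lists were chosen with earlier results of these data known.

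UMIs were summed over the gated cells of a library and given per 1000000. Ratios carried exact conditional intervals, shares exact Clopper-Pearson intervals and levels exact Poisson intervals, and log2 values used a pseudocount of 0.5. Genes needed 20 UMIs over the 2 libraries compared. Reads of 1 molecule share a UMI, but intervals and floors (3 counts) cover counting error only. Named genes were the 10 a side furthest from 1 by the nearer end of the interval (8 a side against fibroblasts), found in at least 10% of cells where higher and with at most 20% of UMIs in 1 cell; gate genes, gene models, haemoglobin, immunoglobulin, mitochondrial, ribosomal protein and Y-linked genes, Xist and Tsix were left out. Of the genes this rule picks, 1 is not reported here. List examples were chosen after their values were seen. TMM factors came from edgeR 4.0.16 and size factors from DESeq2 1.42.0 in R 4.3.3, as scalings of the counts with no test. Other steps used Python 3.11.15 with scipy 1.17.1, and scripts were tested on simulated data.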

Additional observations from a re-analysis of the deposited data

Results flagged for a closer look

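At day 1, 12 of the named genes were measured in jaw fibroblasts. Of these, 2 had ratios on opposite sides of 1 in gated cells and fibroblasts, with neither interval reaching 1, and 2 had intervals on the same side. At day 7, of 12 such genes, 7 had intervals on the same side and 0 on opposite sides. The 2 opposite genes of day 1 were Klf2 and Lbp. Klf2 was at a ratio of 2.80 over Ctrl in gated cells and 0.37 in fibroblasts (0.145 to 0.794), from 7 fibroblast UMIs in 1d and 92 in Ctrl. Lbp, a lipopolysaccharide-binding protein, was at 0.0589 in gated cells (0.00694 to 0.224) and 2.76 in fibroblasts (1.43 to 5.16). The difference between the classes was not tested, and 1d held 12 fibroblasts.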

How the results depend on the processing

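No paired analysis was possible because each group was 1 library. The planned removal of cells with 3 UMIs of other lineages left 23 cells in Ctrl, 1 in 1d and 1 in 7d, and it turned the direction of more results than any other setting. Under it the shares were 0.259%, 0.0195% and 0.0154%, and 185 genes were 2-fold higher in 1d, 193 higher and 627 lower in 7d. In 1d the log2 values that reversed were the list medians of elastic fibre genes (0.97), mechanosensitive genes (0.62), interferon genes (0.21), taurine genes (1.05) and adipogenic genes (1.72), and the genes Hspa1a (-3.39), Klf2 (-1.03), Eda2r (1.41), Glipr1 (1.41), Pcp4 (3.67), Lbp (1.03), C3 (3.53), Ccng1 (0.26) and Lepr (1.95). In 7d they were proteoglycans (-0.13), matrix glycoproteins (-0.53), TGF-beta and BMP genes (0.0086), mechanosensitive genes (0.20), taurine genes (-1.25), Tsc22d3 (-0.16), Pcp4 (1.38), Il1rl1 (2.16), Dusp10 (0.67), Fosl1 (1.54), Gdnf (0.41) and Cdt1 (0.87). A value from 1 cell shows that cell, so these results have no check against RNA of other lineages at that limit. Elsewhere, the taurine median in 1d reversed to 0.0815 with each cell weighted the same, and the S and G2/M median in 7d to -0.46 at 100 UMIs; the cause was not tested. Thinned shares were 0.643% in 1d and 1.51% in Ctrl, and over mesenchymal cells 44.5%, 48.8% and 61.7%. At 5 UMIs, 1266 genes were higher and 931 lower in 1d, and 2073 and 1763 in 7d; at 100 UMIs the counts were 56 and 108, and 140 and 520. The 3 removals of cells or top cells were added after seeing the data; without cells rich in other lineages or haemoglobin the shares were 1.19% in 1d and 1.54% in Ctrl. With 1 library a group, leaving out a replicate was not possible.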
